A study of Rattus norvegicus with 36 samples.

Results

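The genes of the circadian clock were examined in lung tissue of rats exposed to DQ-12, a crystalline silica dust, and of rats that received the vehicle. The 10 genes were Per1, Per2, Per3, Ciart, Nr1d1, Nr1d2, Dbp, Tef, Arntl and Npas2, taken by gene name from the probes on the array that are not controls. They were 10 of 25597 gene names and were represented by 15 probes of 36146 with a gene name. All rats were female Sprague Dawley rats, aged 13 weeks at intratracheal instillation, and received either DQ-12 (10 mg per rat, suspended in saline) or saline alone. Groups of 6 rats per treatment were killed after 1 day (D1), 30 days (D30) and 180 days (D180), which gave 6 groups. Every rat, vehicle rats included, was instilled under Domitor and ketamine, woken with Antisedan, and later killed under xylazine and ketamine. RNA of the accessory lung lobe of each rat was hybridized to a single-color Agilent array, 36 arrays in all. Rats were kept under a light/dark cycle, and neither the time of day at which each rat was killed nor the meaning of the replicate number in the labels was given in the sources used here. Signals below are log2 values after quantile normalization, a difference is between means of log2 signals, and a gene was called at an adjusted p under 0.05 (limma, adjusted over all 23940 genes tested).

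The clock is a feedback loop present in most cells, lung cells included. ARNTL (also named BMAL1) pairs with CLOCK or with the related NPAS2 and activates genes that carry E-box sequences, among them the Per, Nr1d and Dbp genes. The PER proteins and CIART repress that pair, whereas the nuclear receptors NR1D1 and NR1D2 (REV-ERB alpha and beta) repress Arntl itself. DBP and TEF are transcription factors that carry the rhythm to other genes through D-box sequences. In peripheral tissues of rodents under a light/dark cycle, Nr1d1 and Dbp peak in the light phase and Arntl near the turn from dark to light.

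None of the 10 genes was called between DQ-12 and vehicle rats at D1, D30 or D180. Between vehicle groups, Per3 was lower and Arntl and Npas2 were higher at D30 than at D1. A further pattern lay inside the groups: Nr1d1, Nr1d2 and Dbp were higher in rats labelled 4, 5 and 6 than in rats labelled 1, 2 and 3 of every group, whatever the treatment or the day, and Arntl was lower on average.

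All 36 arrays could be used, with 60.96 to 80.55% of spots well above background, no saturated spots and a median correlation between arrays of the same group of 0.974 to 0.981. Each of 12 lung markers was well above background on some arrays of every group. Per1, Per2, Per3, Nr1d2, Dbp, Tef, Arntl and Npas2 were well above background on all 36 arrays, and Nr1d1 on 31. Ciart was well above background on 3 of 36 arrays, so no fold is given for it. In lung tissue, fewer cells of a type and less RNA per cell cannot be told apart. The arrays were spread over 19 slides and 11 scan dates, with 0 slides and 0 dates shared between time points. At D1 the 6 DQ-12 arrays shared a scan date with vehicle rat 3 alone.

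**Figure D1:**
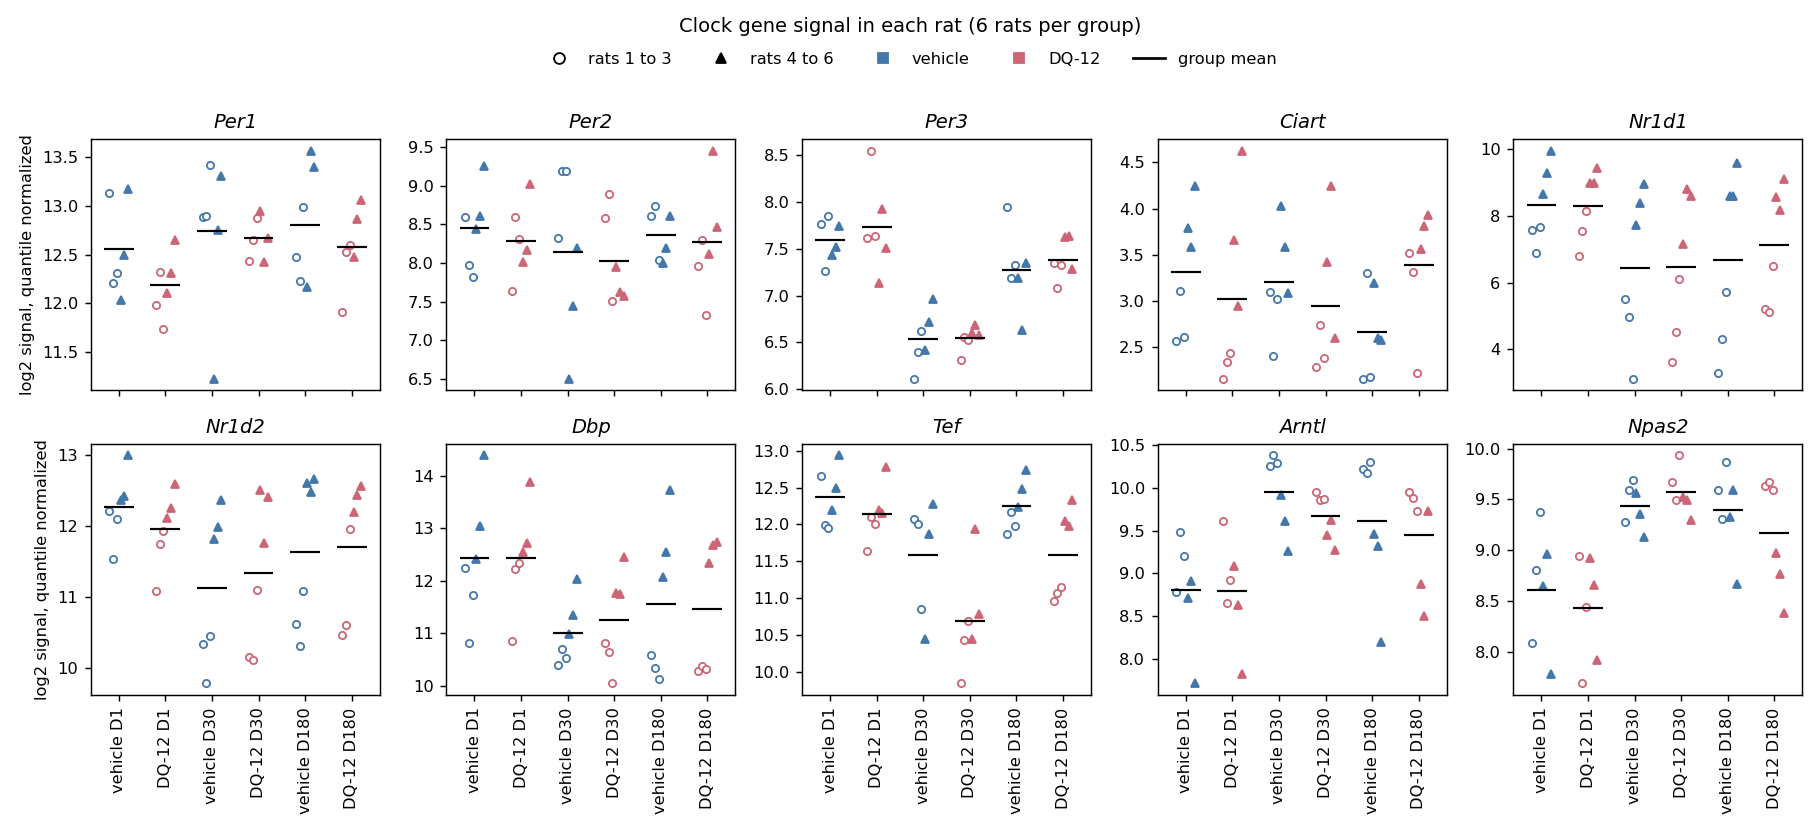
Log2 signal of the 10 clock genes in each of 36 rats (vertical axis, quantile normalized) by group (horizontal axis), with vehicle in blue, DQ-12 in red and group means as bars. Circles mark rats 1 to 3 and triangles rats 4 to 6 of a group. DQ-12 and vehicle rats of the same day overlap widely for Nr1d1, Nr1d2 and Dbp, and triangles lie above circles in every group for these 3 genes.

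Whether DQ-12 changed the clock genes was asked at each time point. At D1, 0 of 10 genes were called, against 16.2% of all genes tested, and 0 had an unadjusted p under 0.05. At D30, 0 of 10 were called against 3.98% of all genes, and 1 had an unadjusted p under 0.05. At D180, 0 of 10 were called against 16.8%, and 1 had an unadjusted p under 0.05. The median size of the difference over the 10 genes was 0.17, 0.17 and 0.19 on the log2 scale at D1, D30 and D180, beside 0.26, 0.18 and 0.24 over all genes. 

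Among the repressors, Per1 was 0.38 lower in DQ-12 than in vehicle rats at D1 on the log2 scale (SE 0.29, 95% interval -0.96 to 0.21, limma adjusted p = 0.417). Its signal at D1 was 12.03, 12.40 and 13.18 (lowest, median and highest of 6) in vehicle rats and 11.73, 12.21 and 12.65 in DQ-12 rats, ranges that overlapped. Per2 differed by -0.16, -0.12 and -0.09 at D1, D30 and D180 (SE 0.37 each). Per3 was the most evenly measured of the 10 genes and differed by 0.13, 0.00 and 0.11 (SE 0.18), with intervals that reached from -0.37 to 0.50 over the 3 days.

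Of the nuclear receptor genes, Nr1d1 had the widest intervals of all 10 genes. It differed by -0.03 at D1 (SE 1.07, 95% interval -2.21 to 2.15), 0.02 at D30 (-2.16 to 2.19) and 0.43 at D180 (-1.75 to 2.61). Its signal at D30 was 3.10, 6.62 and 8.97 in vehicle rats and 3.62, 6.63 and 8.80 in DQ-12 rats, so that both groups spread over the same range. A difference of 2 on the log2 scale in either direction lay inside the D1 and D30 intervals. Nr1d2 differed by -0.32, 0.21 and 0.07 (SE 0.50).

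Among the output factors, Dbp differed by -0.01, 0.25 and -0.10 between DQ-12 and vehicle rats at D1, D30 and D180 (SE 0.61). Tef stood nearest to a call. At D30 its signal was 10.44, 11.94 and 12.28 in vehicle rats and 9.84, 10.57 and 11.94 in DQ-12 rats, a difference of -0.90 (SE 0.31, 1.87-fold lower, limma adjusted p = 0.0998; exact permutation p = 0.0498, two-sided). At D180 Tef was 11.87, 12.20 and 12.73 in vehicle rats and 10.96, 11.56 and 12.33 in DQ-12 rats, a difference of -0.66 (SE 0.31, limma adjusted p = 0.158; exact permutation p = 0.0541). The groups overlapped on both days, with 3 of 6 DQ-12 rats below all vehicle rats.

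The D30 value of Tef moved with the scan date. On 1 date, with 4 vehicle arrays and 1 DQ-12 array, Tef was 11.87 to 12.28. On the other date, with 2 vehicle and 5 DQ-12 arrays, it was 9.84 to 10.85, with no overlap. Within these dates the DQ-12 rats differed from the vehicle rats by -0.12 and -0.21. Once scan date entered as a block, the D30 difference of Tef was -0.18 (SE 0.19, adjusted p = 0.884), and it was -0.16 with slide instead (SE 0.18, adjusted p = 0.811). The D180 difference was -0.77 with scan date as a block (SE 0.20, adjusted p = 0.00972, where 14.7% of all genes were called). Only 2 scan dates of D180 held both treatments. On 1 of these, DQ-12 rats 1 to 3 differed from vehicle rats 1, 3 and 4 by -0.97. On the other, DQ-12 rat 5 differed from vehicle rat 2 by -0.19. Rat numbers were thus not balanced between treatments on these dates. With slide as a block the D180 difference was -1.27, but 1 slide alone held both treatments, with DQ-12 rat 1 and vehicle rat 4. In DQ-12 rats of D180, Tef was 1.06 higher in rats 4 to 6 than in rats 1 to 3. Treatment and rat number thus cannot be told apart in the value from that slide, nor in that of DQ-12 rat 5 and vehicle rat 2. The part of scan date in these values was not tested further. Leaving out vehicle rat 3 or 4 or DQ-12 rat 5 brought the D30 difference of Tef to an adjusted p of 0.0136 to 0.0466.

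The activators did not pass the test either. Arntl differed by -0.01, -0.28 and -0.17 (SE 0.33) and Npas2 by -0.18, 0.14 and -0.22 (SE 0.25). The change of the DQ-12 difference from D1 to D30, from D1 to D180 and from D30 to D180 was also tested as an interaction, and 0 of 10 genes were called in each, against 2.18%, 4.55% and 0.246% of all genes, with 0 at an unadjusted p under 0.05 in each.

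Other genes of the clock, listed by their known role, were read in the same tests. Among 17 such genes, DQ-12 rats had 1 lower at D1, 1 higher at D30, and 2 higher and 3 lower at D180, beside 16.2%, 3.98% and 16.8% of all genes called in either direction. Bhlhe41 (DEC2), a repressor of CLOCK and ARNTL that is also expressed in alveolar macrophages, was 0.90 higher at D30 (SE 0.16, adjusted p = 0.0004) and 1.57 higher at D180 (SE 0.16, 2.97-fold, adjusted p = 7.62e-09). Its signal at D180 was 11.34, 11.74 and 11.89 in vehicle rats and 12.82, 13.17 and 13.85 in DQ-12 rats. The mean signal of 10 macrophage and monocyte markers moved with it. It ranged from 9.07 to 9.28 in vehicle and 9.52 to 10.20 in DQ-12 rats at D30, and from 9.37 to 9.85 and 10.43 to 10.64 at D180. Of the 10 markers, 5 were called at D30 (differences from -0.63 to 2.80) and 6 at D180 (from -0.31 to 2.62), all higher. The shares of all genes called were 3.98% and 16.8%. The part of such cells in the change of Bhlhe41 was not tested. With slide as a block, Bhlhe41 at D180 was 1.19 higher, a value that rests on DQ-12 rat 1 and vehicle rat 4, which shared a slide.

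Bhlhe40 (DEC1), its paralog, was 0.72 higher at D180 (SE 0.19, adjusted p = 0.00656). Rora, the receptor that activates Arntl at the site NR1D1 uses, was 0.59 lower at D180 (SE 0.14, adjusted p = 0.00321), at 9.16, 9.70 and 9.89 in DQ-12 rats and 10.05, 10.16 and 10.34 in vehicle rats. Cry2, a partner of the PER proteins, was 0.50 lower (SE 0.14, adjusted p = 0.0136), and 0.43 lower with an adjusted p of 0.0502 without DQ-12 rat 2. Rorb was called lower at D180 (adjusted p = 0.00747) but was well above background on 1 of 6 DQ-12 arrays. With slide as a block, the differences were 0.75 for Bhlhe40, -0.18 for Rora, -0.89 for Cry2 and 0.36 for Rorb. These values rest on DQ-12 rat 1 and vehicle rat 4 alone, so that fit cannot decide the calls. At D1, Csnk1e, a kinase that acts on PER proteins, was 0.49 lower (SE 0.14, adjusted p = 0.0109), and 0.59 lower with an adjusted p of 0.237 with scan date as a block.

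The array held 8 clock output genes. At D1, 3 of these differed with DQ-12, none did at D30, and 2 did at D180, against 16.2%, 3.98% and 16.8% of all genes. Noct, a rhythmic gene named nocturnin, was 1.06 lower at D1 (SE 0.17, adjusted p = 3.47e-05), at 7.36, 8.46 and 8.83 in DQ-12 rats and 9.02, 9.38 and 9.73 in vehicle rats. With scan date as a block Noct was 0.91 lower, a value in which vehicle rat 3 alone stood for the vehicle rats. Usp2, a deubiquitinase, was 0.41 higher at D1 and 0.43 higher at D180 (adjusted p = 0.0314 and 0.0209), and Lonrf3 was 0.75 higher at D1 (adjusted p = 0.0308). The D1 values of Usp2 and Lonrf3 were 0.01 and 0.12 with scan date as a block, and each lost its call at D1 in 6 of 12 cases when a rat was left out. The sign of Usp2 turned with the median of its probes (-0.32 at D1 and -0.50 at D180). It turned too at D180 with slide as a block (-0.02), a value from DQ-12 rat 1 and vehicle rat 4 alone. At D180 Usp2 lost its call without vehicle rat 5 or DQ-12 rat 4 or 5 (adjusted p 0.0528 to 0.0836). Nampt, an enzyme of NAD synthesis, was 0.79 higher at D180 (SE 0.18, adjusted p = 0.00196). With only the groups compared in the limma fit, Nampt was not called (adjusted p = 0.053). With slide as a block Nampt was 0.63 higher, a value from DQ-12 rat 1 and vehicle rat 4 alone. The mean signal of 10 neutrophil markers was 6.70 to 7.33 in vehicle and 7.64 to 8.32 in DQ-12 rats at D1, and 6.81 to 7.58 and 8.14 to 8.94 at D180. The markers did not move alike. At D1, 2 of the 10 were called, both higher, with differences from -0.52 to 4.61 (median 0.41). At D180, 5 of the 10 were called, all higher, with differences from -0.14 to 4.69 (median 0.995). The part of neutrophils in the changes of the output genes was not tested.

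Vehicle groups were compared between days, since a shift of clock genes between groups that received only saline could mark sampling at other times of day. Day after instillation, age, sampling day, slide and scan date change together here and cannot be told apart. At D30 against D1, 3 of 10 clock genes were called, 2 higher and 1 lower, against 6.53% of all genes (3.15% higher and 3.38% lower). At D180 against D1, 1 of 10 was called, higher, against 10.6% of all genes (6.04% higher). At D180 against D30, 1 of 10 was called, higher, against 11.5% (5.49% higher). The median size of the difference over the 10 genes was 0.94, 0.64 and 0.42 in these 3 comparisons, beside 0.22, 0.24 and 0.24 over all genes.

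The signal of Per3 in vehicle rats was 7.26, 7.63 and 7.85 at D1, 6.11, 6.52 and 6.96 at D30 and 6.64, 7.26 and 7.95 at D180. All 6 vehicle rats at D30 lay below all 6 at D1, a difference of -1.06 (SE 0.18, 2.08-fold lower, adjusted p = 0.000584; exact permutation p = 0.00216, the smallest this design allows). Groups lay apart in that way for 2.17% of all genes. From D30 to D180 Per3 rose by 0.74 (SE 0.18, adjusted p = 0.00759), with 5 of 6 rats above all rats at D30. This rise was not called with scan date as a random block (0.74, adjusted p = 0.059). These values come from the probe that was well above background on all arrays. The other 2 probes of Per3 were well above background on 0 and 1 of 36 arrays and differed by 0.12 and -0.13 at D30 against D1. With the median of the 3 probes, Per3 differed by -0.24 at D180 against D30.

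The activators moved the other way. Arntl was 7.72, 8.85 and 9.48 at D1, 9.26, 10.09 and 10.38 at D30 and 8.20, 9.81 and 10.30 at D180 in vehicle rats. Its rise from D1 to D30 was 1.15 (SE 0.33, 2.22-fold, adjusted p = 0.029, 5 of 6 rats above all rats at D1), and that from D1 to D180 was 0.81 (SE 0.33, adjusted p = 0.108). Npas2 was 7.78, 8.73 and 9.38 at D1, 9.13, 9.46 and 9.69 at D30 and 8.66, 9.46 and 9.87 at D180. Its rise was 0.83 from D1 to D30 (SE 0.25, 1.77-fold, adjusted p = 0.0417) and 0.78 from D1 to D180 (SE 0.25, adjusted p = 0.0406), with overlap in both. Arntl lost its call at D30 without vehicle rat 4 or 6 of D1 or rat 2 or 3 of D30 (adjusted p 0.0563 to 0.0804). Npas2 lost its call at D30 in 8 of 12 cases when a rat was left out (adjusted p 0.0603 to 0.11), and at D180 in 7 of 12 (0.0538 to 0.124). With slide as a random block Per3 remained called at D30 (adjusted p = 0.00691), whereas Arntl was at 0.104 and Npas2 at 0.169.

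Nr1d1, Nr1d2, Dbp and Tef did not pass the test between vehicle groups, though their differences at D30 against D1 were -1.90 (SE 1.07, adjusted p = 0.299), -1.15 (SE 0.50, adjusted p = 0.165), -1.44 (SE 0.61, adjusted p = 0.157) and -0.79 (SE 0.31, adjusted p = 0.122). Per1 and Per2 differed by 0.19 (SE 0.29) and -0.31 (SE 0.37). At D180 against D1 the differences were -1.66 for Nr1d1, -0.64 for Nr1d2, -0.87 for Dbp and -0.13 for Tef, and none of these was called. The spread in these tests includes the step by rat number described below. An unplanned limma fit took the rat number as a block shared by all groups. That block takes out the step by number that was seen in Nr1d1, Nr1d2 and Dbp in these same data. In it Nr1d1 (adjusted p = 0.021), Nr1d2 (0.0033) and Dbp (0.00328) were called at D30 against D1. At D180 against D1, Nr1d1 (0.0297) and Dbp (0.0481) were called. The share of all genes called in that fit is not given here, and its calls are given as a description.

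The DQ-12 rats were read in the same way, after the vehicle groups had been seen to differ. At D30 against D1, 4 of 10 genes were called, against 24.9% of all genes. Per3 was 7.13, 7.63 and 8.55 at D1 and 6.32, 6.57 and 6.68 at D30 in DQ-12 rats, a difference of -1.19 (SE 0.18, adjusted p = 2.27e-05) without overlap, as for 4.12% of all genes. Tef differed by -1.46 (SE 0.31, adjusted p = 0.000798), Arntl by 0.88 (SE 0.33, adjusted p = 0.0453) and Npas2 by 1.14 (SE 0.25, adjusted p = 0.00116). Arntl lost this call in 9 of 12 cases when a rat was left out (adjusted p 0.0552 to 0.127). Of the 6 DQ-12 arrays of D30, 5 were scanned on the date with the low Tef values, and Tef was highest on the remaining array at 11.94. At D180 against D1, Npas2 was 0.74 higher (adjusted p = 0.0412), 1 of 10 genes against 15.4% of all genes. At D180 against D30, Per3 was 0.84 higher (adjusted p = 0.00127) and Tef 0.90 higher (adjusted p = 0.0364), 2 of 10 against 19.4%. Npas2 at D180 lost its call in 6 of 12 cases when a rat was left out (adjusted p 0.0599 to 0.133), and Tef in 8 of 12 (0.0508 to 0.106).

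**Figure D2:**
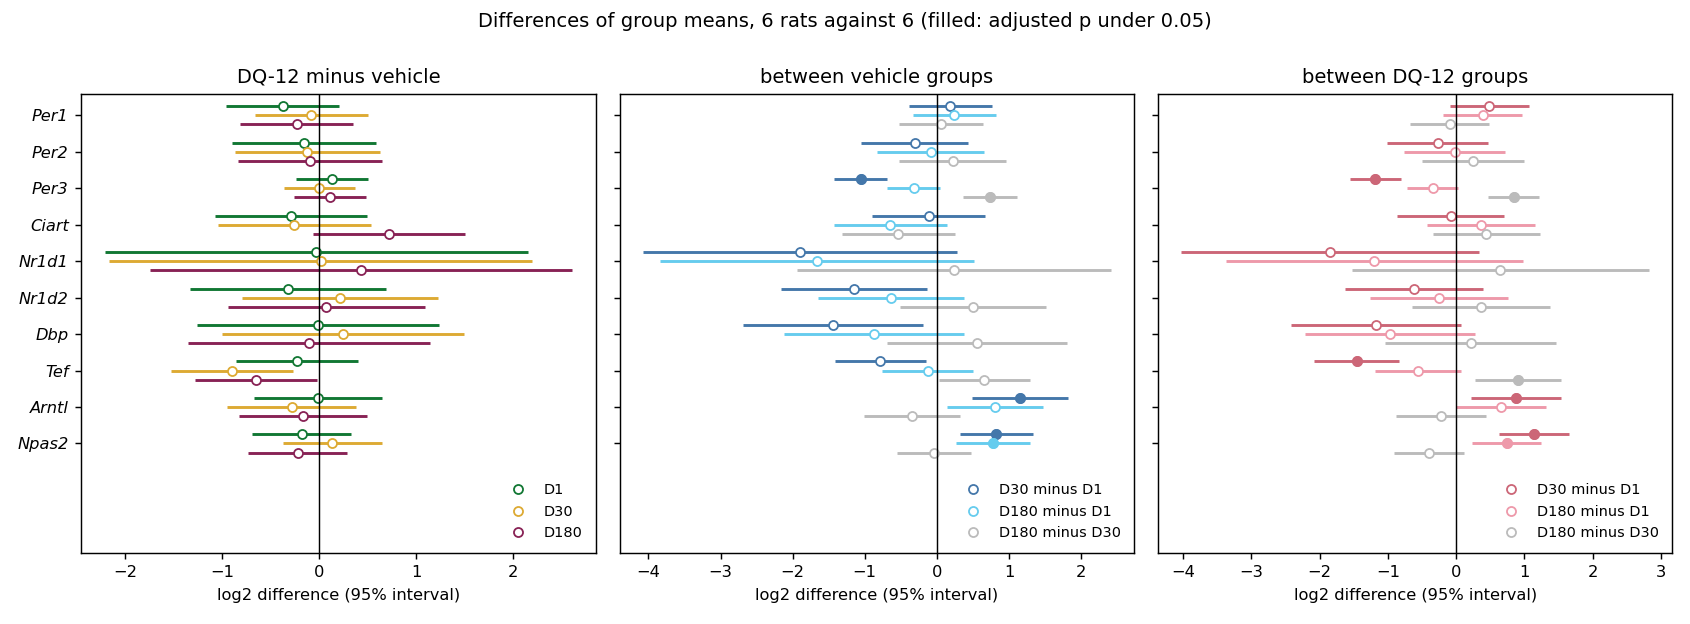
Differences of group means of the 10 clock genes on the log2 scale (horizontal axis) with 95% intervals, for DQ-12 minus vehicle at D1, D30 and D180, between vehicle groups and between DQ-12 groups, 6 rats against 6. Filled points have an adjusted p under 0.05. No point is filled for DQ-12 minus vehicle, and Per3, Arntl and Npas2 are filled at D30 minus D1 in vehicle rats. Ciart is drawn from signals mostly at background.

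Genes that respond to handling and to hormones were read beside the vehicle groups. Among 10 immediate early genes, 1 was called higher at D30 than at D1 (Junb, 0.84, adjusted p = 0.00712) and 2 at D180 (Nr4a1, 1.03, adjusted p = 0.0187, and Junb, 0.83, adjusted p = 0.00488), where 3.15% and 6.04% of all genes were called higher. Among 13 glucocorticoid-responsive genes, 2 were called higher at D30 (Pdk4, 1.01, adjusted p = 0.0318, and Cebpd, 0.65, adjusted p = 0.0118) and 2 at D180 (Pdk4, 1.12, adjusted p = 0.0115, and Dusp1, 0.71, adjusted p = 0.025), against the same shares. The mean signal of the glucocorticoid-responsive genes was 10.80 to 11.09 at D1, 10.74 to 11.62 at D30 and 10.97 to 11.52 at D180 in vehicle rats, and that of the immediate early genes was 9.67 to 10.58, 9.93 to 11.29 and 10.24 to 11.15. Their part in the differences of the clock genes was not tested. Beside these, Rora was the only other clock gene of 17 called between vehicle groups (0.55 higher at D180 than at D1, adjusted p = 0.012).

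Within groups, several clock genes spread widely among rats compared with other genes of like signal. The SD among vehicle rats of Nr1d1 was 1.17 at D1, 2.29 at D30 and 2.61 at D180, at the 99.1, 99.9 and 99.9 percentile of genes with a mean signal within 0.5 on the log2 scale. Dbp stood at the 99.8, 98 and 99.8 percentile, Nr1d2 at 97.5, 99.8 and 99.5 and Per1 at 98.3, 99.1 and 98.2. Per3, which differed most firmly between days, stood at 33, 48 and 66.6.

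For 3 of these genes the spread followed the replicate number that the labels give each rat within its group, from 1 to 6. This was first seen in Nr1d1 and then tested over all genes, so the p-values of these 3 genes are not independent of the choice of test. With the number as an unordered factor beside the 6 group means, 10 of 23940 genes were called (0.0418%), and 3 of the 10 clock genes were among them. Nr1d2, Nr1d1 and Dbp ranked 1, 2 and 3 of all genes tested (adjusted p = 2.85e-05 each). Cry1, a partner of the PER proteins, was called too (adjusted p = 0.000706). Arntl ranked 16 (adjusted p = 0.121), Npas2 158, Tef 392, Per1 1647, Per2 9189 and Per3 23466. A different effect of the number on different days was called by limma for 0 of 10 clock genes (2 at an unadjusted p under 0.05), against 0.0376% of all genes.

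In vehicle rats, Nr1d1 at D1 was 6.89 to 7.67 in rats 1 to 3 and 8.67 to 9.96 in rats 4 to 6. At D30 it was 3.10 to 5.51 and 7.74 to 8.97, and at D180 it was 3.28 to 5.71 and 8.61 to 9.59. In DQ-12 rats, Nr1d1 was 6.79 to 8.14 in rats 1 to 3 and 8.98 to 9.44 in rats 4 to 6 at D1. At D30 it was 3.62 to 6.11 and 7.15 to 8.80, and at D180 it was 5.10 to 6.50 and 8.19 to 9.12. Rats 4 to 6 lay above rats 1 to 3 without overlap in all 6 groups. The 5 arrays on which Nr1d1 was not well above background all belonged to rats 1 to 3 (1 vehicle and 2 DQ-12 rats at D30 and 2 vehicle rats at D180). Levels and differences of Nr1d1 in these 3 groups, and means over groups that include them, therefore rest in part on signals near background and are not exact.

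The mean difference of rats 4 to 6 minus rats 1 to 3 was 3.07 ± 1.11 for Nr1d1 (SD over 6 groups, range 1.65 to 4.50), 1.67 ± 0.58 for Dbp (0.92 to 2.43) and 1.38 ± 0.57 for Nr1d2 (0.65 to 1.90). This cut between numbers was chosen after the values were seen and is given as a description. Nr1d1, Nr1d2 and Dbp were the only genes of 23734 without missing values (0.0126%) for which rats 4 to 6 lay above rats 1 to 3 in each of 6 groups, and 0 genes lay below in each. Arntl was lower in rats 4 to 6 in 6 of 6 groups, by -0.75 ± 0.27 (range -1.24 to -0.45), without overlap in 3 groups. Tef was 0.49 higher (SD 0.39, higher in 5 of 6 groups), and Npas2 was 0.32 lower (SD 0.35, lower in 5 of 6). Per1, Per2 and Per3 differed by 0.11, -0.11 and -0.03. No difference is given for Ciart, which was mostly not well above background. Cry1 was lower in rats 4 to 6, by -1.10 on average.

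The levels of the 2 sets of numbers on each day are given as a description. In rats 4 to 6, Dbp was 12.41 to 14.40 at D1, 10.98 to 12.45 at D30 and 12.07 to 13.72 at D180 over both treatments. In rats 1 to 3 it was 10.82 to 12.34, 10.05 to 10.82 and 10.13 to 10.59. The 2 sets thus lay apart on each day, and farthest at D180. Nr1d2 was 12.11 to 13.00, 11.76 to 12.50 and 12.19 to 12.66 in rats 4 to 6, nearly level over the days, and 11.09 to 12.21, 9.79 to 11.09 and 10.32 to 11.96 in rats 1 to 3. Arntl was 7.72 to 9.08, 9.26 to 9.92 and 8.20 to 9.73 in rats 4 to 6 and 8.66 to 9.62, 9.86 to 10.38 and 9.73 to 10.30 in rats 1 to 3, lower in the former set with some overlap. Nr1d1 in rats 1 to 3 had a mean of 7.43 at D1, 4.64 at D30 and 5.02 at D180. As given above, no test found the effect of the number on these genes to differ between days.

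**Figure D3:**
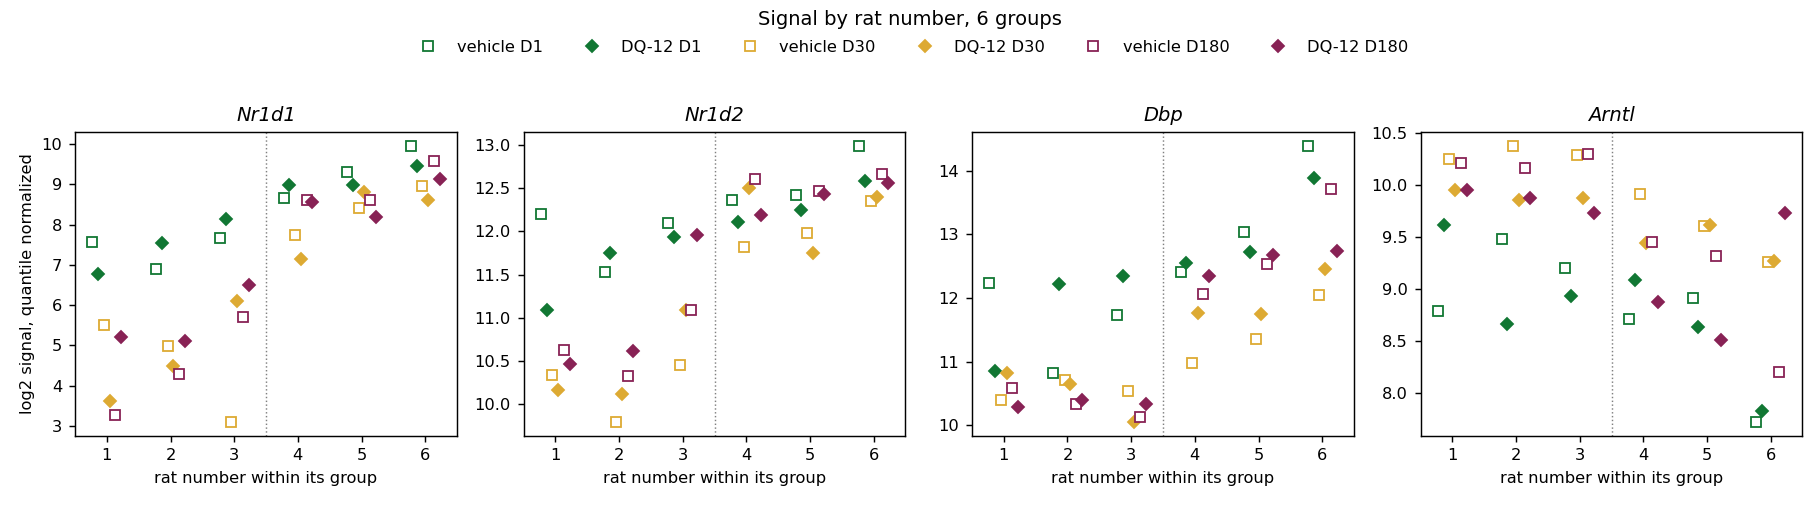
Log2 signal (vertical axis) of Nr1d1, Nr1d2, Dbp and Arntl by the number of the rat within its group (horizontal axis), with open squares for vehicle, filled diamonds for DQ-12 and colors for D1, D30 and D180. The dotted line separates rats 1 to 3 from rats 4 to 6. For the first 3 genes every group steps up across the line, and Arntl steps down on average.

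Slide and scan date were set beside the number. The 6 DQ-12 arrays of D1 were scanned on the same date, and there Nr1d1 was 1.65, Dbp 1.25 and Nr1d2 0.73 higher in rats 4 to 6. Within a date and group that held both sets of numbers (7 comparisons), the difference was 1.65 to 4.64 for Nr1d1, 0.45 to 1.71 for Dbp and 0.50 to 2.11 for Nr1d2, a direction that the lack of overlap in each group already fixed, and -0.88 to -0.37 for Arntl. With scan date as a block the 3 genes remained called (adjusted p = 0.0156 for Nr1d1 and 0.0232 for Nr1d2 and Dbp). With slide as a block, which left 9 residual degrees of freedom, no gene was called (adjusted p = 0.602, 0.905 and 0.905), and the differences were 2.80, 1.48 and 1.26. The call of the 3 genes held when any of the 36 rats was left out. Among the other gene lists, the number test in limma called 0 of 8 clock output genes, 13 glucocorticoid-responsive genes, 10 immediate early genes, 12 lung markers, 10 neutrophil, 10 macrophage and monocyte, 12 muscle and 10 lymphocyte markers. What the number stands for, and whether it followed the order or time of sampling, was not tested.

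The sequence upstream of these genes is shown for the 3 genes that split by number and for Arntl, which moved the other way. The sequences are from RefSeq (build GRCr8), 250 bases up to the gene start on the strand of the gene, with matches to the motifs in capitals. Motifs were searched on both strands in promoters of 300 bases: the E-box CACGTG, its variant CACGTT, the D-box TTATGTAA and AGGTCA, a site of NR1D receptors.
Nr1d1, upstream start, chr10:84231813-84232062, minus strand: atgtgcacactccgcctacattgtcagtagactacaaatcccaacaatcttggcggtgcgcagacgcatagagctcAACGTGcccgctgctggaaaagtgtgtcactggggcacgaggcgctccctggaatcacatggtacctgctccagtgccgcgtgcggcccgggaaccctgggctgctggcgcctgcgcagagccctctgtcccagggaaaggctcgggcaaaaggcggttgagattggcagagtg
Nr1d1, downstream start, chr10:84229455-84229704, minus strand: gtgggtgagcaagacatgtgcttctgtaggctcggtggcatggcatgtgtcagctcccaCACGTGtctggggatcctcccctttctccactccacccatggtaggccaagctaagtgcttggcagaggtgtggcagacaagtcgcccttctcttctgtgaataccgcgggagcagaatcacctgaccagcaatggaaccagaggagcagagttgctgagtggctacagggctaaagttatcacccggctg
Nr1d2, chr15:9954784-9955033, plus strand: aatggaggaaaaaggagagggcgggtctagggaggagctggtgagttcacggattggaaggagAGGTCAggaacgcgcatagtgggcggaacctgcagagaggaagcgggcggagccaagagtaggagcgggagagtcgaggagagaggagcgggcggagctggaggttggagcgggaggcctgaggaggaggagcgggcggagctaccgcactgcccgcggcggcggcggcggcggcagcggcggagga
Dbp, chr1:105312006-105312255, plus strand: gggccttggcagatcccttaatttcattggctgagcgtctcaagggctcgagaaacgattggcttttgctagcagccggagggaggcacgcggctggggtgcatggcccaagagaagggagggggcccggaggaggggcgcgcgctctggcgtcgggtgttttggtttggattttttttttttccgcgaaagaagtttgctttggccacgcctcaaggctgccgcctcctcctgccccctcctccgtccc
Arntl, chr1:176766078-176766327, plus strand: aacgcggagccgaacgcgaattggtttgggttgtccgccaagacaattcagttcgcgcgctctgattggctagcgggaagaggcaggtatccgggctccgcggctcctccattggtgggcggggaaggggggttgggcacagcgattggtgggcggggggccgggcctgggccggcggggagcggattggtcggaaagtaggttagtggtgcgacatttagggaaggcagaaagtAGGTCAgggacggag
CACGTG was found 191 bases before the downstream start of Nr1d1 and CACGTT on the opposite strand, printed as AACGTG, 174 bases before its upstream start. AGGTCA was found 187 bases before the start of Nr1d2 and 15 bases before that of Arntl. None of these motifs lay in the window of Dbp. All 10 clock genes matched a RefSeq symbol (Arntl as Bmal1), with 11 promoters, since Nr1d1 had 2. CACGTG was in 3 of 11 promoters (Ciart with 3 matches, Nr1d1 and Tef) against 6.42% of 33469 promoters in all. CACGTT was in 2 of 11 against 4.83%, TTATGTAA in 1 of 11 (Per2) against 0.89% and AGGTCA in 2 of 11 against 16.18%. A match describes letters in this window and is no evidence of binding.

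Finally, Arntl was set against the other clock genes across rats, as deviations of each rat from the mean of its group. Permutations within groups were used, adjusted over 9 relations. Over 36 rats Npas2 rose with Arntl (r = 0.688, rho = 0.651, permutation adjusted p = 0.00029 and 0.00031), and Tef fell (r = -0.543, rho = -0.579, permutation adjusted p = 0.00036 and 0.00092). Without the 2 rats farthest from the median of Arntl, r was 0.585 for Npas2 and -0.503 for Tef (permutation adjusted p = 0.004 each). Among rats that shared a scan date (n = 28), r was 0.713 for Npas2 and -0.68 for Tef, and among rats that shared a slide (n = 21) it was 0.704 and -0.701. For Per1, r was -0.41 (rho = -0.403, permutation adjusted p = 0.032 and 0.044). Without those 2 rats r was -0.294 and did not pass (permutation adjusted p = 0.14). Among rats that shared a scan date r of Per1 was -0.146, and among rats that shared a slide -0.489 (permutation adjusted p = 0.49 and 0.14). Per2 (r = -0.243, rho = -0.146, permutation adjusted p = 0.16 and 0.41) and Per3 (r = -0.213, rho = -0.323, permutation adjusted p = 0.3 and 0.094) did not pass.

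Because Nr1d1, Nr1d2 and Dbp fell into separate sets by number, their relation to Arntl is given within each set of 18 rats, as deviations from the mean of the 3 rats of that set in a group. For Dbp, r was -0.819 in rats 1 to 3 (rho = -0.564, permutation adjusted p = 0.13 and 0.18) and -0.797 in rats 4 to 6 (rho = -0.721, permutation adjusted p = 0.022 and 0.052). For Nr1d2, r was -0.507 and -0.544 (rho = -0.61 and -0.567, permutation adjusted p of r = 0.13 and 0.061). For Nr1d1, r was -0.275 and -0.38 (rho = -0.329 and -0.373, permutation adjusted p of r = 0.21 and 0.15). Npas2 within the sets had r of 0.752 and 0.702 (rho = 0.616 and 0.651, permutation adjusted p of r = 0.16 and 0.061), and Tef had r of -0.458 and -0.346 (rho = -0.618 and -0.323, permutation adjusted p of r = 0.13 and 0.1). Of 9 relations within each set, Dbp and Per2 (r = -0.722, rho = -0.68) passed by r in rats 4 to 6 (permutation adjusted p = 0.022 each) but not by rho (0.052 each), and 0 passed in rats 1 to 3.

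**Figure D4:**
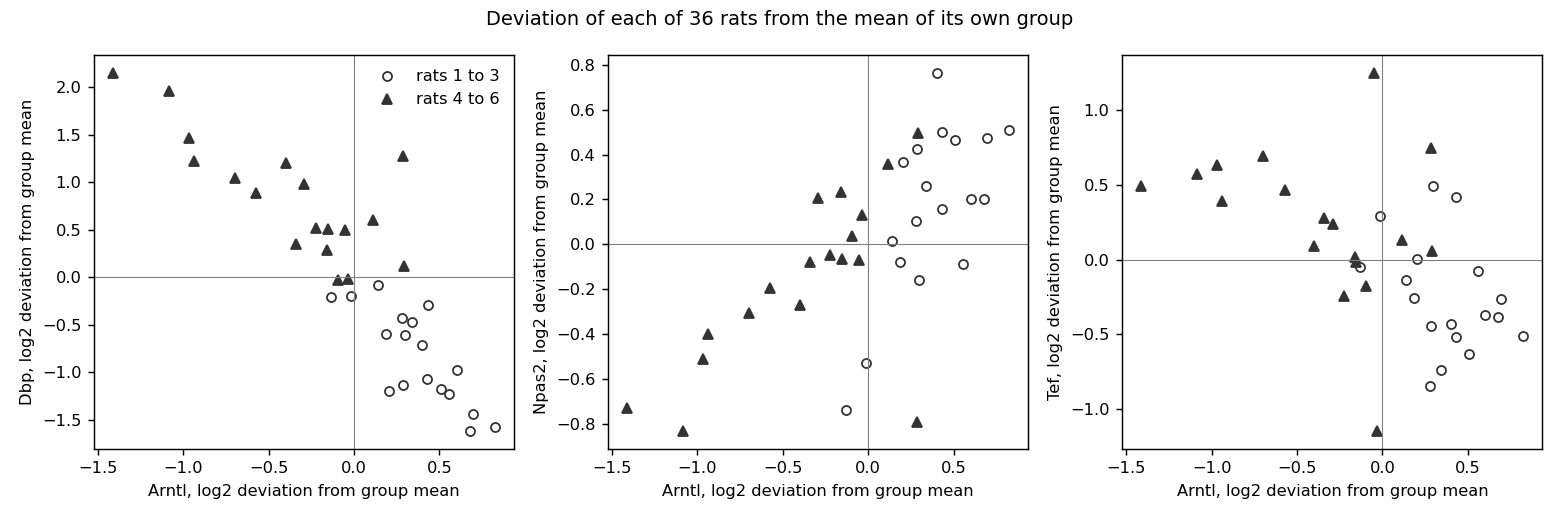
Deviation of each of 36 rats from its group mean on the log2 scale, Arntl on the horizontal axis and Dbp, Npas2 or Tef on the vertical axis. Circles are rats 1 to 3 and triangles rats 4 to 6. Dbp falls as Arntl rises within both sets (r = -0.819 and -0.797 when each set is centered on its own mean in a group), and Npas2 rises with Arntl (r = 0.688 over 36 rats).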

How the data were processed

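Lung RNA of 36 rats in 6 groups was measured on single-color Agilent arrays (design build rn4). The authors' image analysis with Feature Extraction 12.0.1.1, named in the submitters' processing notes, yielded the deposited intensity of each spot. The authors' value table matched log2 processed intensity after subtraction of each array's 75th percentile and centering of each probe (r = 0.99997, median absolute difference 0.00176 over 1300890 values), and served as an alternative.

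Here, log2 processed intensities were averaged per probe without outlier spots (232 to 596 per array), which left values missing in 206 genes. Probes above the 95th percentile of 308 negative control spots on at least 6 arrays were kept and quantile normalized, and the brightest probe of each gene was used, which left 23940 genes. Groups came from the labels, and p-values measure the spread between the rats of a group. A model of 6 group means (30 residual degrees of freedom) was fitted in limma 3.58.1 (R 4.3.3, statmod 1.5.0), with two-sided tests and Benjamini–Hochberg adjustment in each comparison. Exact permutation tests used the 924 splits of 12 arrays, and correlations 100000 permutations (Python 3.11.15, numpy 2.4.6). The model was checked on simulated data.

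The clock genes and gene lists were chosen with earlier results of these data known. All 10 clock genes are named in each comparison, and genes of other lists where called, at most 6 (other clock and output genes) or 3 a comparison by size. Same-numbered rats were not treated as pairs (vehicle and DQ-12 rats of a day correlated by -0.131 to 0.218, over 0.1 in 6 of 18 pairs). The model of 6 group means thus leaves the step of Nr1d1, Nr1d2 and Dbp by number in the spread between rats. The batch variable of the authors' correction is not given in the sources used here. Slide and scan date were used as fixed and as random blocks (intra-block correlation 0.387 and 0.251). Other alternatives changed the signal column, background correction (normexp, offset 50), normalization, filter, probe summary, samples in the fit, moderation and thresholds, or left out each rat. With arrays, precision rests on their number. Some results of the gene lists are not reported here.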

Additional observations from a re-analysis of the deposited data

Results flagged for a closer look

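Each of the 10 clock genes was screened in each of the 6 groups for a rat far from the others, 60 screens in all, of which chance marks about 1 in 20. In 2 of them the gap between the lowest rat and its neighbor, as a share of the range of the group, exceeded the critical value of Dixon's test. Per1 in vehicle rats at D30 was 11.22 in rat 4, whereas the next rat was at 12.75 (gap 0.696 of the range). Ciart in DQ-12 rats at D180 was 2.225 in rat 3 and 3.31 in the next rat (0.637 of the range), with all 6 values not well above background. Both were scored from signals on the log2 scale, and the origin of neither was tested.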

How the results depend on the processing

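Counts are of 10 clock genes called. DQ-12 against vehicle gave 0 at D1 under every alternative run. At D30 the count was 1 with the replicate number as a block shared by all groups (Tef, adjusted p = 0.0364). At D180 it was 1 with scan date as a block, 1 with scan date as a random block (Tef, adjusted p = 0.00972 and 0.0479) and 1 with the replicate block within each time point (Ciart, at background, adjusted p = 0.0325). The interactions stayed at 0. With the median of a gene's probes, vehicle rats had 0 at D180 against D30, and DQ-12 rats 2 at D30 against D1 and 1 at D180 against D30. With only the groups compared in the fit, vehicle rats had 0 at D180 against D1 and 0 against D30, and DQ-12 rats 0 and 1. With slide as a random block, vehicle rats had 1 at D30 and 0 at D180 against D1, and DQ-12 rats 1 at D180 against D30. With scan date as a random block, vehicle rats had 1 at D30 and 0 at D180 against D1 and 0 at D180 against D30, and DQ-12 rats 0 at D180 against D1 and 1 against D30. At least 2-fold in addition left 0 in vehicle and 0 in DQ-12 rats at D180 against D1 and against D30. Calling every probe left 0 in vehicle and 1 in DQ-12 rats at D180 against D30. The number shared by all groups as a block gave 6 (D30) and 4 (D180) against D1 in vehicle rats and 7 and 3 in DQ-12 rats. The share of all genes called in that fit is not given here, so these counts are a description. In vehicle rats that block added Nr1d1 (adjusted p = 0.021), Nr1d2 (0.0033) and Dbp (0.00328) at D30, and Nr1d1 (0.0297), Dbp (0.0481) and Arntl (0.0188) at D180. The labels do not say whether same-numbered rats belong together. Over the clock genes, 17 of 36 arrays resembled their own number best, and every array resembled best a number of its own set, 1 to 3 or 4 to 6. These are the same values in which the split by number was seen, so the count is no further evidence of pairing. Differences between vehicle days could not be fitted with slide, scan date or number within a day as fixed blocks, since these share no level between days. The number test gave 3 genes in most settings, 4 where Arntl joined (adjusted p = 0.0383 from median signals, 0.0403 with normexp, 0.0339 with trend and robust moderation, 0.0175 without the DQ-12 group of D180), and 0 with slide as a block. Arntl's relations passed in 7 of 9 over 36 rats, 0 of 9 in rats 1 to 3 and 2 of 9 in rats 4 to 6. Leaving out 1 rat gave 0 to 0 at D1, 0 to 1 at D30 and 0 to 0 at D180 for DQ-12, 1 to 3, 0 to 2 and 1 to 1 between vehicle days (D30 and D180 against D1, D180 against D30), 3 to 4, 0 to 1 and 1 to 2 between DQ-12 days, 0 to 0 for interactions and 3 to 4 for the number. Values that turned were Csnk1e at D1 (0.044), Usp2 at D1 (-0.32) and D180 (-0.50), and Per3 at D180 against D30 in vehicle (-0.24) and DQ-12 rats (-0.14), all with the median of probes, which for Per3 takes in the 2 dim probes and gave -0.03 at D30 against D1. With slide as a block Rorb (0.36) and Usp2 (-0.015) at D180 turned, as did r of Arntl with Ciart in rats 1 to 3 (0.058). The causes of the other changes were not tested. Dim signals limit Ciart, Rorb and Nr1d1 in rats 1 to 3.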

Other observations

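The genes outside the clock list whose deviations most resembled the mean of the clock genes (Arntl and Npas2 with the sign turned) over 36 arrays were Ccdc116 (r = 0.837), Smim1 (0.799), Rasl10a (0.784), Epm2a (0.772) and Mindy1 (0.75). The most opposed were Dtx4 (-0.808), Cxcl3 (-0.742), Pex19 (-0.739), Usp9x (-0.72) and Fibin (-0.71). These correlations share arrays, slides and scan dates and are given as a description.

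Among the genes called by rat number, 5 belonged to none of the gene lists. Lingo4 was 1.07 lower in rats 4 to 6 than in rats 1 to 3 (adjusted p = 0.000706 over the numbers). Tcap was 0.90 higher (adjusted p = 0.00444), Acaa2 0.35 higher and Rprml 0.66 higher (adjusted p = 0.0302 each), and Ccdc116 1.13 higher (adjusted p = 0.042). Nfil3, the repressor that competes with DBP and TEF at D-boxes, ranked 20 and was 0.45 lower (adjusted p = 0.173). The limma p-values here measure the number as an unordered factor.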
